A study of Homo sapiens with 4 samples.

Results

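The mitochondrial genome encodes 37 genes, whose transcript counts were compared between naïve and primed human embryonic stem cells. The members were all transcripts that the count tables place on chromosome MT. There are 37 of them, 1 per gene, among 62218 genes with a matched transcript, and they comprise 13 mRNAs, 2 rRNAs and 22 tRNAs. All 37 were among the 27632 genes that passed the filter of at least 10 counts in at least 2 libraries. MT-TA passed through the primed libraries alone, where its counts were higher, so its call had to fall in that direction. Counts of called or non-overlapping genes below, and medians over tRNAs or all 37 genes, include it on those terms.

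The samples were wild-type H1 cells, an established human embryonic stem cell line, sequenced as cDNA on a nanopore instrument, with 2 libraries per state and 4 in all. The naïve cells, derived from primed H1 cells, were grown in the FINE condition, which combines kinase inhibitors with LIF, activin A and bFGF at low oxygen. The primed cells were grown in mTeSR (labelled TesR) on Matrigel at normal oxygen. Both states come from a single line, and state, medium and oxygen cannot be told apart. The labels do not say whether the replicates were separate cultures, so p-values measure only the spread between these libraries, which may be technical.

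Both strands of the circular mitochondrial DNA are transcribed as long polycistronic RNAs by the polymerase POLRMT. In these precursors most mRNAs and both rRNAs are separated by tRNAs, and cutting at the tRNA ends releases the individual RNAs. The mRNAs encode subunits of respiratory complexes I, III, IV and V, whose other subunits are encoded in the nucleus. Primed pluripotent cells are known for a glycolytic metabolism, and naïve cells for greater use of mitochondrial respiration.

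The counts record alignments. An alignment was counted for every transcript it touched, without regard to strand, and each place to which a read aligned was counted. A long alignment over a gene and the start of its neighbour therefore entered both counts. Totals over all transcripts were 153647482 and 161548901 in naïve libraries and 129276054 and 132927036 in primed libraries. The 8 naïve marker genes were all called lower in primed cells and the 8 primed marker genes were all called higher. Over all genes 32.6% were called lower and 37.4% higher. With plain library sizes KLF17, a naïve marker, turned to a log2 fold change of 0.23 (adjusted p = 0.114 by edgeR). Summed normalised levels of the naïve markers were 1227 and 1042 CPM (counts scaled by library size) in naïve against 76.7 and 78.3 in primed libraries. Trophoblast markers also differed: 9 of 10 were called lower in primed cells, and KRT7 was not called (log2 fold change 0.37). Their summed levels were 2095 and 2424 CPM in naïve and 6.11 and 4.89 CPM in primed libraries. Most of the naïve sums came from CGA (1548 and 1862 CPM) and CGB5 (404.7 and 400.0 CPM). VGLL1 and HSD3B1 were at 0 in both primed libraries. All 6 amnion markers were called lower in primed cells, from 29.2 and 27.8 CPM to 8.38 and 6.81 CPM in sum. With plain library sizes GABRP (adjusted p = 0.665 by edgeR) and BMP4 (adjusted p = 0.312 by edgeR) lost their calls. Whether other cell types were present, and whether they had a part in the mitochondrial results, was not tested.

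The tRNA genes below are given 5′ to 3′ on their own strand, from the GRCh38 mitochondrial sequence, with the anticodon in capitals. The first 3 had the largest counts, the next 3 the smallest, and the last 3 are a row of neighbours between MT-ND1 and MT-ND2, chosen after their values were seen, in which the difference between states changed most from gene to gene.
MT-TL1 (leucine, chrM:3230-3304, plus strand): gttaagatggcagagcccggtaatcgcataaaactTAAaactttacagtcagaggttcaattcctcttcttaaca
MT-TV (valine, chrM:1602-1670, plus strand): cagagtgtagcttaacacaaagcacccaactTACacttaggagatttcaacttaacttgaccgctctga
MT-TS1 (serine, chrM:7446-7514, minus strand): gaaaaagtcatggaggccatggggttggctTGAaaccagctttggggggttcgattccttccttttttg
MT-TA (alanine, chrM:5587-5655, minus strand): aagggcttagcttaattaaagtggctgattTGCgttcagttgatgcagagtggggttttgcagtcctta
MT-TN (asparagine, chrM:5657-5729, minus strand): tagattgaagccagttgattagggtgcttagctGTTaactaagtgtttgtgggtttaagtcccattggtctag
MT-TF (phenylalanine, chrM:577-647, plus strand): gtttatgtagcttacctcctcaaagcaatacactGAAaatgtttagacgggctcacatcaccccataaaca
MT-TI (isoleucine, chrM:4263-4331, plus strand): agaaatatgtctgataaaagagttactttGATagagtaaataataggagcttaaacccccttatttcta
MT-TQ (glutamine, chrM:4329-4400, minus strand): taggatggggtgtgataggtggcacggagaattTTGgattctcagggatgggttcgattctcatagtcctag
MT-TM (methionine, chrM:4402-4469, plus strand): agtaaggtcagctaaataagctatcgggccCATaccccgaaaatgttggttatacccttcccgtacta
MT-TI starts at the base after the end of MT-ND1, and MT-TV and MT-TL1 start at the base after the end of MT-RNR1 and of MT-RNR2. MT-TQ lies on the opposite strand to MT-TI and MT-TM.

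Each class of mitochondrial RNA made up a larger share of all transcript counts in primed than in naïve cells. The 13 mRNAs held 0.0548% and 0.0686% of the counts in naïve libraries and 0.123% and 0.127% in primed libraries, a ratio of 2.03. The 2 rRNAs held 0.123% and 0.150% against 0.205% and 0.196%, a ratio of 1.47. The 22 tRNAs held 0.0196% and 0.0230% against 0.0767% and 0.0808%, a ratio of 3.70. In each class both primed libraries lay above both naïve libraries. Together the 37 genes held 0.219% ± 0.0312 (SD, n = 2) of counts in naïve cells and 0.404% ± 0.000212 (SD, n = 2) in primed cells. These are not shares of reads, since the total counts an alignment for every isoform it touched and each mitochondrial gene has a single transcript. With every gene represented by its isoform of largest mean count, the 37 genes held 1.14% ± 0.166 (SD, n = 2) in naïve and 2.20% ± 0.0311 (SD, n = 2) in primed cells. Wilson 95% intervals cover counting error only and take the counts as independent. They were narrow beside the gap between the naïve libraries, for example 0.0544% to 0.0551% for the mRNAs of the first naïve library. The exact two-sided permutation p was 0.333 for each class, the smallest that 2 against 2 libraries allow.

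The size of this difference depended on the scaling. With TMM scaling, which sets the libraries to a common level over most genes, the mRNAs stood at 3645 and 4342 CPM in naïve and 5397 and 5521 CPM in primed libraries, a ratio of 1.37. The rRNAs stood at 8159 and 9462 CPM against 8980 and 8480 CPM, so that the states overlapped and the ratio was 0.991 (exact permutation p = 1). The tRNAs stood at 1307 and 1453 CPM against 3366 and 3501 CPM, a ratio of 2.49. Over all 27632 genes tested, the median log2 fold change of primed over naïve was 0.08 with TMM and 0.72 with plain library sizes, and every fold change below is relative to the first of these unless stated.

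**Figure D1:**
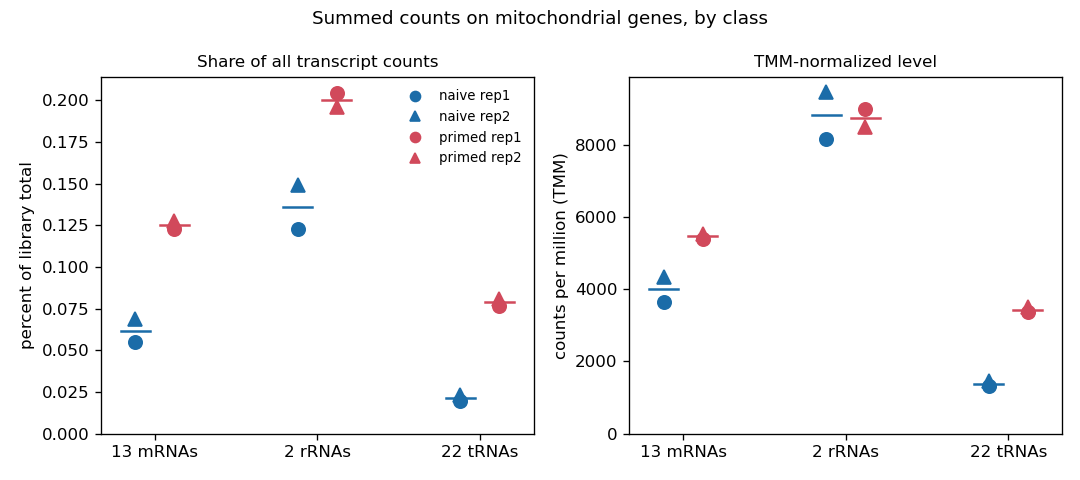
Summed counts on the mitochondrial mRNAs, rRNAs and tRNAs in each library, as a percentage of all transcript counts (left) and as TMM-normalised CPM (right). Points are libraries and bars are the means of 2. On the left every primed library lies above the naïve libraries, while on the right the rRNAs overlap.

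Shares within the mitochondrial counts do not depend on library scaling. The rRNAs took 62.2% and 62.0% of mitochondrial counts in naïve libraries and 50.6% and 48.5% in primed libraries. The tRNAs took 9.97% and 9.52% against 19.0% and 20%, and the mRNAs 27.8% and 28.5% against 30.4% and 31.5%. For every 100 mRNA counts there were 223.8 and 217.9 rRNA counts in naïve and 166.4 and 153.6 in primed libraries. In both primed libraries the rRNA share was lower, and the tRNA share higher, than in either naïve library.

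Gene by gene, 29 of the 37 genes were called higher in primed cells and 2 were called lower at an adjusted p under 0.05 (edgeR quasi-likelihood test, Benjamini-Hochberg over all genes tested). The background was high: 70.0% of all genes tested were called, 37.4% higher and 32.6% lower. The higher genes were 8 of 13 mRNAs and 21 of 22 tRNAs, the lower ones were MT-RNR1 and MT-ND4, and 6 genes were not called. The median log2 fold change was 1.24 over the 37 genes, 0.77 over the mRNAs and 1.90 over the tRNAs, against 0.08 over all genes. With plain library sizes 35 were called higher and none lower by edgeR (none at an unadjusted p under 0.05 either), beside 56.2% and 16.3% of all genes (72.5% in either direction). The median over the 37 was then 1.87 against 0.72. DESeq2 with its own scaling called 28 higher and 4 lower, beside 29.1% and 29.6% of all genes. When 1 library was left out, the median over the members tested ran from 1.25 to 1.48, against 0.02 to 0.12 over all genes.

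**Figure D2:**
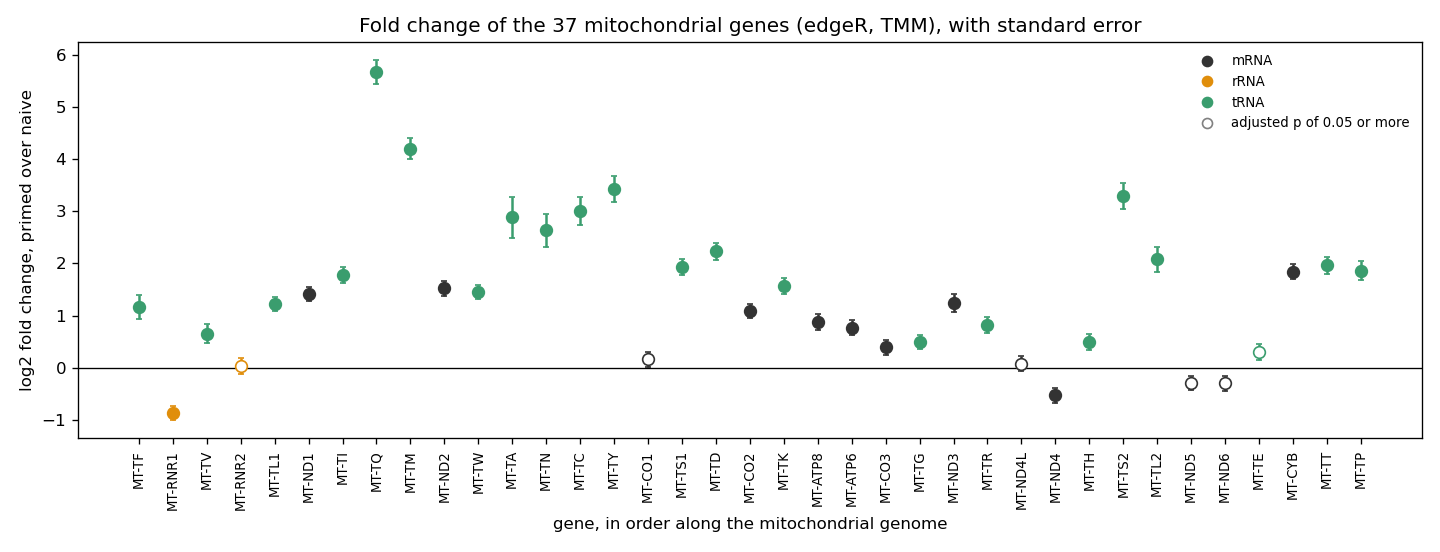
Log2 fold change of primed over naïve cells (edgeR with TMM scaling, 2 libraries per state) for the 37 mitochondrial genes, in order along the genome. Bars are standard errors and open points have an adjusted p of 0.05 or more. The values run from -0.87 for MT-RNR1 to 5.66 for MT-TQ, and neighbouring genes often differ.

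The rRNA genes lie next to each other on the genome, with MT-TV between them. With TMM scaling MT-RNR1 was called lower and MT-RNR2 was not called. MT-RNR1, the 12S rRNA of the small mitochondrial ribosomal subunit, had 14833 and 13700 counts in naïve libraries and 9039 and 10361 in primed libraries. Both primed libraries were lower, by 1.83-fold with TMM scaling (log2 fold change -0.87 ± 0.14 SE, adjusted p = 8.64e-07 by edgeR), a call that was lost with plain library sizes (-0.23, adjusted p = 0.0849 by edgeR). MT-RNR2, the 16S rRNA of the large subunit, had 173518 and 227879 counts against 255542 and 249882. Its normalised levels overlapped between the states, at 7516 and 8925 CPM against 8673 and 8142 CPM (log2 fold change 0.03 ± 0.15 SE, adjusted p = 0.853 by edgeR), while plain library sizes gave 0.67 (adjusted p = 1.56e-05 by edgeR). The ratio of the pair needs no scaling: MT-RNR1 stood at 8.55% and 6.01% of MT-RNR2 in naïve and at 3.54% and 4.15% in primed libraries. The mitochondrial ribosome holds 1 copy of each, and the count of MT-RNR2 exceeded that of MT-RNR1 in every library.

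Of the 7 complex I mRNAs, 3 were called higher, 1 lower and 3 not called, beside 37.4% higher and 32.6% lower over all genes, so the count itself does not set them apart. Complex I, the NADH dehydrogenase, takes electrons from NADH. MT-ND1 had 3682 and 4750 counts in naïve and 13611 and 14079 in primed libraries, 2.66-fold higher with TMM scaling (log2 fold change 1.41 ± 0.14 SE, adjusted p = 9.94e-12 by edgeR). MT-ND2 rose from 2477 and 3195 to 9442 and 10674 counts, 2.88-fold (1.52 ± 0.14 SE, adjusted p = 1.62e-12 by edgeR). MT-ND3 rose from 156 and 249 to 530 and 650 counts, 2.37-fold (1.24 ± 0.17 SE, adjusted p = 3.99e-08 by edgeR). In all 3 both primed libraries lay above both naïve libraries, as in 44.8% of all genes tested.

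The complex I genes further along the genome behaved otherwise. MT-ND4 had 16217 and 25374 counts in naïve and 16371 and 18944 in primed libraries. Its normalised levels, 703 and 994 CPM against 556 and 617 CPM, were 1.45-fold lower in primed cells (log2 fold change -0.53 ± 0.15 SE, adjusted p = 0.00174 by edgeR), but the sign turned with plain library sizes (0.10, adjusted p = 0.547). This call also needed each of 3 libraries: the adjusted p was 0.0838 without the second naïve library, 0.226 without the first primed library and 0.0649 without the second primed library. MT-ND4L, whose reading frame overlaps that of MT-ND4, had 5305 and 8612 counts against 9127 and 8911 (0.08 ± 0.15 SE, adjusted p = 0.64 by edgeR). MT-ND5 had 7660 and 10561 counts against 9331 and 9051, and MT-ND6, the sole mRNA of the opposite strand, 4900 and 6420 against 5742 and 5585. Neither was called with TMM scaling (-0.29 with adjusted p = 0.071, and -0.30 with adjusted p = 0.0569), and both were called higher with plain library sizes (0.35 with adjusted p = 0.0219, and 0.34 with adjusted p = 0.0257) and lower by DESeq2 (-0.33 with adjusted p = 0.0389, and -0.35 with adjusted p = 0.0252). For both genes DESeq2 and edgeR with library sizes gave opposite calls, so no direction can be given for the level of either. MT-ND6 stood at 64.0%, 60.8%, 61.5% and 61.7% of MT-ND5 in the 4 libraries. The 2 genes meet end to end on opposite strands. Without strand, RNA of either strand anywhere within the span of MT-ND6 was counted for it, so its values cannot be assigned to a strand.

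Complex III contributes a single mRNA, MT-CYB, the cytochrome b subunit, which had the largest fold change of the 13 mRNAs. It had 2731 and 2945 counts in naïve and 12521 and 12556 in primed libraries, 3.57-fold higher with TMM scaling (log2 fold change 1.84 ± 0.14 SE, adjusted p = 4.25e-15 by edgeR). MT-CYB was at 35.7% and 27.9% of MT-ND5 in naïve and at 134.2% and 138.7% in primed libraries, so the order of the pair reversed.

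Of the 3 mRNAs of complex IV, cytochrome c oxidase, which passes electrons to oxygen, 2 were called higher, beside 37.4% of all genes. With so few genes the count itself does not set them apart. MT-CO2 had 10825 and 12776 counts in naïve and 29886 and 32302 in primed libraries, 2.13-fold higher (log2 fold change 1.09 ± 0.14 SE, adjusted p = 5.16e-09 by edgeR). MT-CO3 had 8643 and 10378 counts against 13852 and 16888, a smaller difference (0.39 ± 0.14 SE, adjusted p = 0.014 by edgeR), not called without the first naïve library (adjusted p = 0.167). MT-CO1, the catalytic subunit, had 14561 and 15222 counts against 20305 and 20909, and was not called with TMM scaling (0.16 ± 0.14 SE, adjusted p = 0.304 by edgeR) but was with plain library sizes (0.80, adjusted p = 1.65e-06). MT-CO1 was at 134.5% and 119.1% of MT-CO2 in naïve and at 67.9% and 64.7% in primed libraries, a ratio that is free of scaling and separated the states.

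Both mRNAs of complex V, the ATP synthase, were called higher, beside 37.4% of all genes. They are translated from 1 bicistronic RNA and overlap by 46 bases, as do MT-ND4L and MT-ND4 by 7 bases. The overlaps are shown in capitals, since an alignment across either was counted for both genes of the pair.
MT-ATP8 and MT-ATP6 (chrM:8527-8572, plus strand): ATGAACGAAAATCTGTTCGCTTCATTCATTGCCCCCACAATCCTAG
MT-ND4L and MT-ND4 (chrM:10750-10776, plus strand): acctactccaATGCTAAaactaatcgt
MT-ATP8 had 2054 and 3117 counts in naïve and 5919 and 5710 in primed libraries (log2 fold change 0.87 ± 0.15 SE, adjusted p = 1.96e-06 by edgeR). MT-ATP6 had 4937 and 7266 against 12372 and 13175 (0.77 ± 0.15 SE, adjusted p = 1.14e-05 by edgeR). MT-ATP8 was at 41.6% and 42.9% of MT-ATP6 in naïve and at 47.8% and 43.3% in primed libraries, a gap smaller than the difference between the primed libraries. MT-ND4L was higher relative to MT-ND4 in both primed libraries, from 32.7% and 33.9% to 55.8% and 47.0%.

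As parts of the mRNA pool, which removes the scaling, 7 mRNAs took a larger share in both primed libraries than in either naïve library, 5 a smaller share, and MT-CO3 overlapped. Across all genes tested, the TMM-normalised levels of the states did not overlap for 84.4%, with 44.8% higher and 39.6% lower in both primed libraries. The larger shares were those of MT-ND1, MT-ND2, MT-CO2, MT-ATP8, MT-ATP6, MT-ND3 and MT-CYB. MT-CO2 went from 12.9% and 11.5% of mRNA counts to 18.8% and 19.1%, and MT-CYB from 3.25% and 2.66% to 7.87% and 7.41%. The smaller shares were those of MT-CO1, MT-ND4L, MT-ND4, MT-ND5 and MT-ND6. MT-ND4 took the largest share in naïve cells, 19.3% and 22.9%, and 10.3% and 11.2% in primed cells, where MT-CO2 was the largest. By complex, complex I went from 48.0% and 53.4% of mRNA counts to 40.4% and 40.1%, complex V went from 8.31% and 9.37% to 11.5% and 11.2%, and complex IV overlapped at 40.4% and 34.6% against 40.3% and 41.4%.

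**Figure D3:**
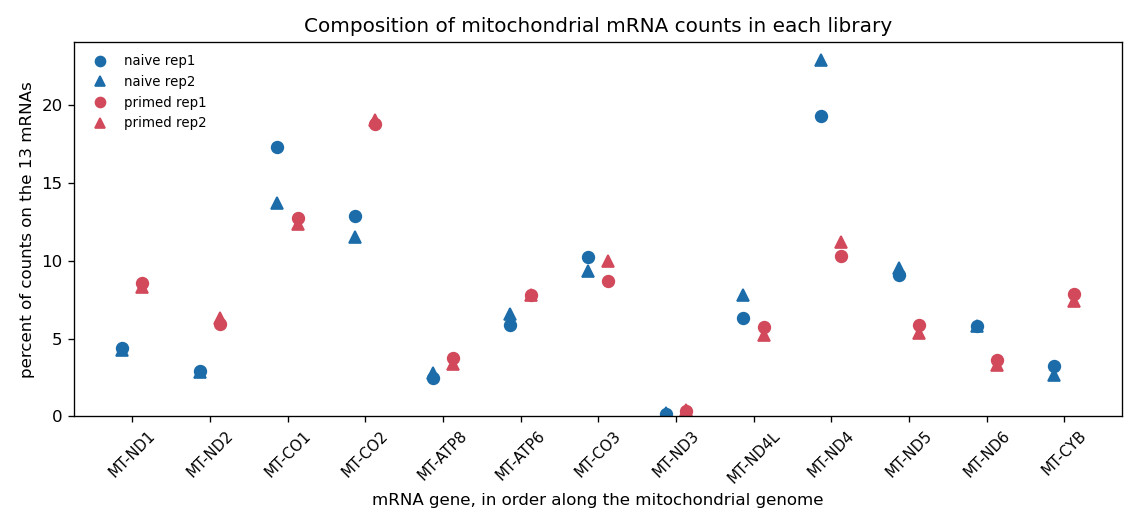
Share of each of the 13 mRNAs in the mitochondrial mRNA counts of each library, in percent, in order along the genome. MT-ND4 was the largest in naïve libraries (19.3% and 22.9%) and MT-CO2 in primed libraries (18.8% and 19.1%).

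Per kilobase of gene, MT-RNR2 had the highest value of the 15 mRNAs and rRNAs in both states. It stood at 5273 ± 639 (SD, n = 2) normalised CPM per kilobase in naïve and 5393 ± 241 (SD, n = 2) in primed cells. In naïve cells MT-ND4L followed at 955 ± 256 and MT-CO2 at 709 ± 32.5. In primed cells MT-CO2 stood second at 1511 ± 39.5 and MT-ND4L next at 1010 ± 46.2. MT-ND3 was the lowest in both states, at 23.9 ± 6.12 and 56.6 ± 6.52. In naïve cells the neighbours in this order from MT-RNR1 to MT-ATP6 (618 to 366) overlapped, each with the next, and only steps at the top and bottom of the order were clear. MT-ND4L contains counts of alignments that run into MT-ND4. An alignment added 1 count whatever the length of the gene, so division by length raises short genes such as MT-ND4L (297 bases). Before this division MT-ND4L had a mean of 283.5 CPM in naïve cells, below MT-ND4 at 848.1, MT-CO1 at 613.4 and MT-CO2 at 484.6. The order per kilobase is therefore not an order of molecule numbers.

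A tRNA count here is not a count of mature tRNAs, since any alignment that reached into a tRNA gene from its neighbour was included. All 22 had a positive log2 fold change, from 0.30 to 5.66, and MT-TE, with 622 and 535 counts in naïve and 797 and 975 in primed libraries, was not called (0.30 ± 0.16 SE, adjusted p = 0.0861 by edgeR). With TMM scaling and with plain library sizes none was called lower.

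Among the tRNAs with the largest counts, MT-TL1 had 11810 and 14710 counts in naïve and 38665 and 37434 in primed libraries, 2.33-fold higher (log2 fold change 1.22 ± 0.14 SE, adjusted p = 4.8e-10 by edgeR). MT-TS1 had 2640 and 2132 against 11504 and 11208, 3.82-fold higher (1.93 ± 0.15 SE, adjusted p = 6.06e-15 by edgeR). MT-TV, which also serves as a structural RNA of the mitochondrial ribosome, had 3518 and 6572 against 6778 and 12745 counts. Its normalised levels overlapped between the states, and the call (0.65 ± 0.18 SE, adjusted p = 0.0018 by edgeR) was lost by DESeq2 (adjusted p = 0.337), without the first naïve library (adjusted p = 0.177) and without the second primed library (adjusted p = 0.199).

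Of the 3 tRNAs with the smallest counts, MT-TN had 12 and 24 counts in naïve and 96 and 181 in primed libraries (log2 fold change 2.63 ± 0.32 SE, adjusted p = 1.19e-09 by edgeR), and MT-TF had 60 and 53 against 141 and 172 (1.16 ± 0.23 SE, adjusted p = 3.09e-05). MT-TA had 7 and 9 against 51 and 97 counts, values given as a description because it reached 10 counts in primed libraries only. For MT-TN and MT-TF no library of one state reached the range of the other, as in 84.4% of all genes tested.

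The largest difference was in the row of tRNAs between MT-ND1 and MT-ND2, which was singled out after its values were seen. MT-TI, MT-TQ and MT-TM lie inside a stretch of which chromosome 1 holds a copy, described below. RNA from either genome cannot be told apart in them. MT-TI had 2067 and 2681 counts in naïve and 9709 and 10382 in primed libraries, a log2 fold change of 1.78 ± 0.15 SE. MT-TQ had 25 and 24 counts in naïve and 1185 and 1911 in primed libraries, 50.6-fold higher with TMM scaling (5.66 ± 0.23 SE, adjusted p = 1.04e-24 by edgeR). MT-TM had 54 and 64 against 1053 and 1634, 18.3-fold higher (4.20 ± 0.20 SE, adjusted p = 3.53e-22 by edgeR). Relative to MT-TI, MT-TQ went from 1.21% and 0.895% to 12.2% and 18.4%. The spans of MT-TI and MT-TQ overlap at chrM:4329-4331, so an alignment that reached the end of MT-TI was counted for both. Relative to MT-ND2, which begins at the base after it, MT-TM went from 2.18% and 2.0% to 11.2% and 15.3%. These 2 ratios, in which the scaling cancels, were higher in both primed libraries, and the primed libraries differed from each other by less than they differed from the naïve libraries.

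Setting each tRNA against the larger of its flanking mRNAs or rRNAs removes the scaling for all 22. The ratio was higher in both primed libraries than in both naïve libraries for 18 of them, lower for MT-TE, and overlapping for MT-TV, MT-TT and MT-TP. For levels rather than ratios, the states did not overlap in 84.4% of all genes tested. In 44.8% both primed libraries were higher. MT-TL1 stood at 6.81% and 6.46% of MT-RNR2 in naïve and at 15.1% and 15.0% in primed libraries. MT-TS1 stood at 18.1% and 14.0% of its larger neighbour, MT-CO1, in naïve libraries and at 38.5% and 34.7% of MT-CO2 in primed libraries, and against MT-CO1 alone at 56.7% and 53.6% in the latter. MT-TI was already high, at 56.1% and 56.4% of MT-ND1, and reached 71.3% and 73.7%.

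A grouping by position, made after the values were seen, describes much of this range. In 10 tRNAs, the first to follow the end of an mRNA or rRNA, the median count was 9.27% of the larger neighbour in naïve and 20.7% in primed cells, and the median log2 fold change was 1.34 (from 0.49 to 1.96). In the 12 others, which lie further from such an end, before MT-RNR1 or on the far side of MT-ND6, the median was 0.306% in naïve and 1.92% in primed cells, and the median log2 fold change 2.76 (from 0.30 to 5.66). MT-TS2, second after MT-ND4, had 18 and 47 counts against 343 and 441 (3.29 ± 0.25 SE), while MT-TH, the first, had 624 and 841 against 1161 and 1375 (0.49 ± 0.15 SE). MT-TY, MT-TC, MT-TN and MT-TA, 4 minus-strand genes in a row, had log2 fold changes from 2.63 to 3.43. MT-TP and MT-TT, at the end of MT-CYB, followed that gene: the log2 fold changes were 1.86 and 1.96 beside 1.84. MT-TW, MT-TK, MT-TG and MT-TR, all first after an end, had log2 fold changes of 1.45, 1.56, 0.49 and 0.82, and MT-TD and MT-TL2, which are not, had 2.23 and 2.08. The groups overlap in range, and the difference between them was not tested.

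**Figure D4:**
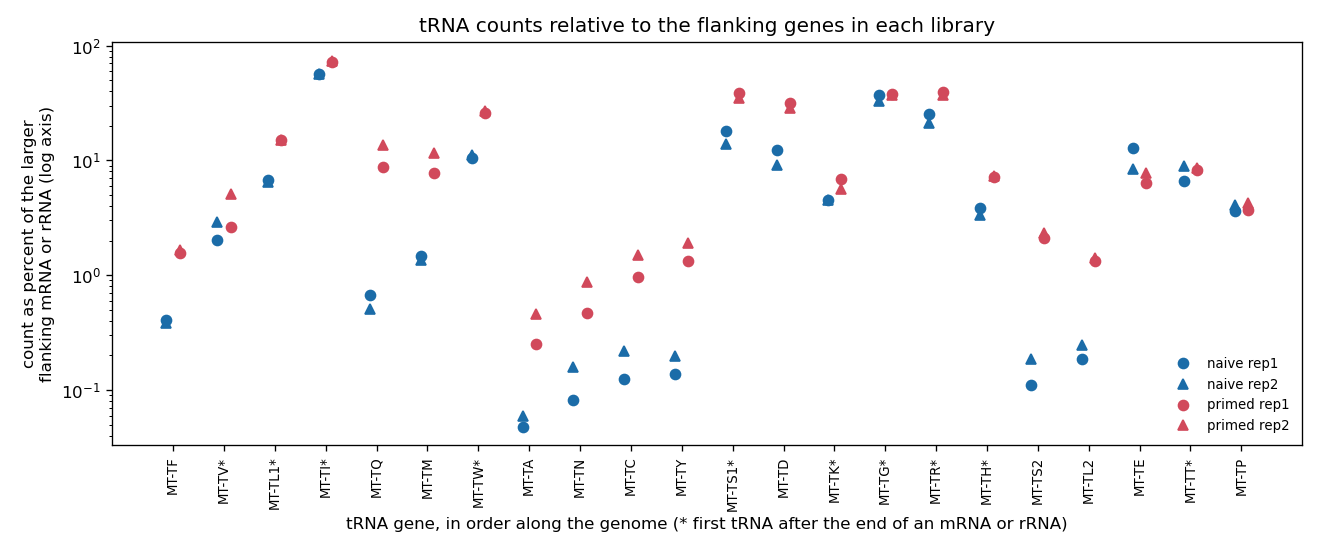
Count of each tRNA gene as a percentage of the larger count among its flanking mRNA or rRNA genes, on a log axis, for each library, in order along the genome. Asterisks mark the 10 tRNAs that come first after an mRNA or rRNA. Points of the primed libraries lie above those of the naïve libraries for 18 of 22 tRNAs. In TMM-normalised levels the same held for 44.8% of all genes tested.

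Nuclear copies of mitochondrial genes share these counts. A stretch of 5846 bases on chromosome 1 (chr1:629081-634924, GRCh38) matches chrM:3911-9755 with 98.5% identity, and 16 of the 37 genes lie wholly inside it, among them 5 mRNAs. The others are tRNAs, and they include MT-TI, MT-TQ, MT-TM, MT-TY, MT-TC, MT-TN and MT-TA, among which are the largest differences. The copies with the largest counts were MTCO2P12, MTCO1P12 and MTATP6P1, all on chromosome 1. MTCO2P12 had between 94.4% and 96.9% of the count of MT-CO2 in each library, and MTCO1P12 between 96.8% and 98.7% of that of MT-CO1. Their log2 fold changes of 1.11 and 0.18 stood beside 1.09 and 0.16 for the mitochondrial genes. MTATP6P1 had 85.8% and 87.0% of the count of MT-ATP6 in naïve and 66.8% and 68.4% in primed libraries, so that its log2 fold change was 0.41 beside 0.77. Of 404 annotated copies of the mRNA genes, 7 had a mean count of at least 1000 and 27 entered the test. Since each place of alignment was counted, RNA from either genome cannot be told apart in these genes or in the tRNAs inside the stretch. MT-ND5 and MT-CYB had no copy above 3.13% of their count in any library.

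Of 43 nuclear genes for the replication of mitochondrial DNA and for its transcription, RNA processing and RNA stability, 11 were called higher, 13 lower and 19 were not called, beside 37.4% higher and 32.6% lower over all genes. The median log2 fold change was -0.07, against 0.08 over all genes. With plain library sizes 27 were called higher and 2 lower, beside 56.2% and 16.3% of all genes. Without the second primed library 6 were called lower (28.0% of all genes), and without the first 8 (27.8%). Under these settings the count is not read as a result about the list. Among those higher were MTERF1, a protein that binds within MT-TL1 and is known for ending transcription (33 and 23 against 135 and 137 counts, log2 fold change 1.96 ± 0.27 SE, adjusted p = 2.92e-08 by edgeR), and TRMT10C, a subunit of the RNase P that cuts the 5′ ends of tRNAs (177 and 205 against 521 and 504, 1.12 ± 0.17 SE, adjusted p = 1.48e-07). The primase PRIMPOL (1.86), the nuclease EXOG (2.0) and FASTK, which is needed for MT-ND6 mRNA (1.06), were also higher. SLIRP, which with LRPPRC stabilises mitochondrial mRNAs, had 13472 and 14638 counts in naïve and 5436 and 6956 in primed libraries (-1.49 ± 0.14 SE, adjusted p = 3.02e-12 by edgeR). SUPV3L1, the helicase of the mitochondrial RNA degradosome, was also lower (-1.32 ± 0.18 SE, adjusted p = 1.74e-08 by edgeR).

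The nuclear-encoded subunits of the same complexes were mostly lower in primed cells. Of 83 listed, 81 were tested, 66 were called lower in primed cells (background 32.6%) and 1 higher (37.4%), with a median log2 fold change of -0.97. In complex I, 30 of 37 were lower, in complex III 8 of 9, in complex IV 11 of 14 tested and in complex V 13 of 17. The 4 subunits of complex II, all of them nuclear, were lower as well. ATP5MJ, of the ATP synthase, had 9286 and 10106 counts in naïve and 2394 and 3295 in primed libraries, 4.23-fold lower (log2 fold change -2.08 ± 0.15 SE, adjusted p = 4.23e-16 by edgeR). COX7A2 of complex IV had 15409 and 13552 against 4053 and 5361 (-1.94 ± 0.15 SE, adjusted p = 5.43e-15 by edgeR). NDUFA1, NDUFAB1 and NDUFV1 of complex I, UQCRQ of complex III, COX6B2 of complex IV and ATP5F1E of complex V had values from -1.81 to -1.69. With plain library sizes 42 were called lower and 15 higher, beside 16.3% and 56.2% of all genes. The median was then -0.33, against 0.72 for all genes and 1.40 for the mitochondrial mRNAs. A change of scaling moves all these fold changes by a similar amount, so it could not alter the order of these medians.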

How the data were processed

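Nanopore cDNA libraries from total RNA of naïve and primed H1 cells were analysed, with 2 libraries per state; how the cDNA was primed is not given in the sources used here. The authors aligned reads to GRCh38 with minimap2 2.17-r941, and the deposited values are raw counts of alignments per transcript of Ensembl release 105 from featureCounts 2.0.0, over whole transcript spans, without strand, for every transcript overlapped and every alignment of a read. Totals were 129276054 to 161548901 per library, in which an alignment enters once for every transcript it overlapped. Counting error depends on the count of each gene, and is not small for those with few counts, such as MT-TA (7 and 9 in naïve libraries).

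Symbols were taken from GENCODE release 44, which matched 242542 of 244825 transcripts and all 37 mitochondrial ones. Each gene was represented by its isoform with the largest mean count. Genes reaching 10 counts in 2 or more libraries were tested with edgeR 4.0.16 in R 4.3.3 (TMM, quasi-likelihood, state as the term, two-sided, Benjamini-Hochberg over 27632 genes). The standard error is the log2 fold change divided by the square root of the F statistic. Normalised CPM are counts scaled to a common TMM-adjusted library size. Shares were compared by an exact permutation test and given Wilson intervals. The stretch on chromosome 1 was found with blastn 2.17.0. Counts for this comparison were simulated over 27084 genes, with 100 genes changed 2-fold, 100 changed 4-fold and a fixed dispersion (spread between replicates) of 0.02. On these, edgeR recovered 74% of 2-fold and 100% of 4-fold changes, with 10 unchanged genes called. All other genes were left unchanged, so the simulation cannot speak to the choice of scaling.

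All 13 mRNAs and both rRNAs are named, with the 3 tRNAs of largest and the 3 of smallest mean count, up to 8 called genes per nuclear list (log2 fold change beyond 1, mean count of at least 50, states not overlapping) and the 3 nuclear copies of largest count. Other genes were named after their values were seen. The members and lists were chosen with earlier results of these data known. Of the 44 genes first listed for the mitochondrial DNA machinery, FASTKD4 matched no symbol and was not analysed. Alternatives were other scalings, DESeq2 1.42.0, other filters, summed isoforms, the replicate number as a block, and leaving out each library.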

Additional observations from a re-analysis of the deposited data

How the results depend on the processing

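The mitochondrial genes called higher in primed cells numbered 28 to 35 under every alternative with all 4 libraries, beside 22.9% to 56.2% of all genes. The 2 called lower became 0 with plain library sizes (16.3% of all genes), 1 with the total of all transcript counts as library size (17.7%) and 4 by DESeq2 (29.6%). Scaling turned MT-ND4 to 0.10 (library sizes) and 0.04 (total), MT-ND5 to 0.35 and 0.28, and MT-ND6 to 0.34 and 0.27 in log2 fold change; these alternatives omit the TMM factors, which ran from 0.779 to 1.25. MT-RNR2, near 0, turned to -0.02 by DESeq2 and ran from -0.15 (without the first naïve library) to 0.24 when 1 library was left out, and MT-ND4L from -0.23 (without that library) to 0.33. With the TMM-scaled library size as the denominator (chosen after seeing the data), the log2 ratio of class shares was 0.31 for all 37 genes, 0.45 for mRNAs, -0.01 for rRNAs and 1.32 for tRNAs, against 0.88, 1.02, 0.56 and 1.89. When the rRNAs were included in the denominator, 3 mRNAs had a smaller share in both primed libraries. Machinery genes called higher were 27 with library sizes and 24 with totals, and those called lower 2 and 3, and 6 to 14 when 1 library was left out. Nuclear subunits called lower were 42 and 43 under these scalings, beside 16.3% and 17.7% of all genes. Those called higher were 15 and 13, beside 56.2% and 54.1%. The number called higher was 0 by DESeq2 (29.1% of all genes), 2 without a count filter (22.9%) and 3 with a minimum of 50 counts (37.9%). The median log2 fold change of the subunits ran from -1.09 to -0.76 when 1 library was left out. Except where a scaling is named, the cause was not tested. The states share replicate numbers, but nothing says that these pair the libraries: the deviations of same-numbered libraries correlated at 0.0593 over all genes and 0.228 over the 37 mitochondrial genes, with 2 numbers only. With the replicate number as a block, 30 mitochondrial genes were called higher and 3 lower, beside 37.9% and 33.4% of all genes. MT-ND6 was among the lower ones (-0.29, adjusted p = 0.0468 by edgeR), and no named gene lost its call.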
